A study of Bos taurus with 94 samples.

Results

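The genes described here are 4 bovine Ensembl identifiers, ENSBTAG00000043561, ENSBTAG00000043584, ENSBTAG00000043560 and ENSBTAG00000043564, of 24616 genes in the expression table. They were selected on their measured FPKM, as identifiers that lead or nearly lead the abundance list in many of the libraries, so their levels, ranks and shares are given as a description without a test. The table holds 94 RNA-seq libraries from snap frozen tissues of Hereford cattle, and its values are FPKM, the number of mapped fragments scaled by transcript length and by the size of the library. Every library is labelled adult, including the one labelled fetal testis, and the labels give no treatment, batch, sex or animal. The libraries fall into 35 tissue groups, of which 19 hold 2 or more libraries and 16 hold 1. Libraries of a group are mostly different organs or sites of one kind (11 muscles, 8 brain regions), and the 3 follicle libraries share 1 label. The p-values therefore measure the spread between libraries, which may come from few animals.

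The identifiers were put forward as mitochondrial transcripts. The gene table used here lists 37 mitochondrial genes of the assembly ARS-UCD2.0 but no Ensembl identifier, so 0 identifiers could be matched to a symbol, and the mitochondrial origin of the 4 could not be checked. No gene name or function is therefore given to any of them. As background, animal mitochondria carry a small circular genome that encodes subunits of the respiratory chain and of the ATP synthase, together with the RNAs of the mitochondrial ribosome. It is copied in long transcripts that are cut into single RNAs, and the amount of each RNA then depends on its own processing and decay. Tissues differ in how rich in mitochondria they are, and the shares below were not used to judge the origin of the 4.

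FPKM totals ran from 585122 to 1062590 per library with a median of 710126, and read depth is unknown because no counts are given. A set of 11 libraries, taken over from an earlier look at these data, is set apart here, because each is closest to a library of another tissue by Spearman correlation over all expressed genes without the 4 identifiers. Diaphragm and gall bladder were each other's closest (rho 0.994), corpus luteum was closest to longissimus dorsi (0.956), choroid plexus to triceps brachii (0.840), and the isthmus of the oviduct on the side of the corpus luteum to cervical lining (0.884). The others were mammary replicate 1, follicle 1, trachea, adrenal, bone marrow and vesicular gland. Among the 78 libraries in groups of 2 or more, 19 further ones also had their closest library in another group, none of them from brain, intestine or forestomach. The same holds by construction for the 12 other libraries that are alone in their group. The 11 are therefore not the only libraries of this kind, and no fixed threshold separates them. The 11 are called by their labels below and drawn as open circles in 2 of the figures. Mean shares given below for groups that hold them are also given without them, as are some of the tests.

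ENSBTAG00000043561 was the most abundant of the 4. It averaged 23694 ± 15250 FPKM (SD, n = 94), with a median of 18717 FPKM, a lowest value of 2983 FPKM in anterior pituitary and a highest value of 75445 FPKM in ventricle. It held rank 1 among all genes in 49 libraries, a rank within 5 in 86 and within 10 in 92, and it was the highest of the 4 in 77 libraries. Its lowest rank was 39, in the isthmus on the side of the corpus luteum. None of the other 3 was within the first 10 in as many libraries.

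ENSBTAG00000043584 had a median of 10423 FPKM, with 1073 FPKM in mammary replicate 1 as the lowest value and 75058 FPKM in temporal cortex as the highest. ENSBTAG00000043560 had a median of 11980 FPKM, from 2189 FPKM in anterior pituitary to 60631 FPKM in temporal cortex. ENSBTAG00000043564 had a median of 11856 FPKM, from 169 FPKM in the isthmus on the side of the corpus luteum to 56497 FPKM in temporal cortex. The medians of these 3 lie close together, but the spread over libraries differed: the SD of log2(FPKM + 1) was 1.35 for ENSBTAG00000043584, 0.92 for ENSBTAG00000043560 and 1.17 for ENSBTAG00000043564, beside 0.92 for ENSBTAG00000043561. ENSBTAG00000043584 held rank 1 in 6 libraries and fell outside the first 10 in 27. ENSBTAG00000043560 held rank 1 in 4 and fell outside the first 10 in 14. ENSBTAG00000043564 held rank 1 in 1 library, bull testis, and fell outside the first 10 in 14.

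One of the 4 led all genes in 60 of the 94 libraries. The other 34 were led by 24 other genes, each leading at most 3 libraries. All 4 stood within the first 10 in 57 libraries, within the first 5 in 32, and filled ranks 1 to 4 in 15. In 6 libraries none of them reached the first 5. All 4 identifiers were above the expression filter in every library and none was listed at 0. By mean FPKM over all libraries the next gene, in place 5, reached 12850 FPKM, beside 14838 FPKM for ENSBTAG00000043560, the lowest of the 4.

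Together the 4 took a median of 7.53% of a library's FPKM total, with 4.99% and 12.8% at the quartiles. The sum ranged from 1.31% in the isthmus on the side of the corpus luteum to 27.3% in temporal cortex, a 20.9-fold span. It exceeded 20% in 5 libraries: temporal cortex (27.3%), the library labelled corpus luteum (27.2%), ventricle (25.8%), atrium (23.0%) and frontal cortex (21.2%). In 24 libraries it was under 5%. In these bulk samples, fewer cells of a type rich in these transcripts and less of the transcripts per cell cannot be told apart, and an FPKM share also moves with every other abundant gene of the library.

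Among groups of 2 or more libraries, heart had the highest mean share, 24.4% ± 2.01 (SD, n = 2). Brain followed with 16.5% ± 5.87 (n = 8, from 9.18% in pons to 27.3% in temporal cortex) and kidney with 14.9% ± 0.486 (n = 2). Skeletal muscle averaged 14.4% ± 4.10 (n = 11), and 15.4% ± 2.48 (n = 10) without diaphragm. Diaphragm, at 4.26%, was below the other 10 muscles (10.8% to 18.4%), and it sat beside the 3.95% of gall bladder, its closest library. Forestomach (rumen, rumen papillae, reticulum and omasum) averaged 10.6% ± 1.64 (n = 4).

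At the low end stood cervix and vagina with 3.32% ± 0.592 (n = 2), mammary with 3.81% ± 3.46 (n = 2), pituitary and pineal with 5.02% ± 3.33 (n = 4), oviduct with 5.21% ± 2.19 (n = 6) and lymphoid organs, bone marrow and white blood cells with 5.42% ± 1.30 (n = 5). Without the isthmus on the side of the corpus luteum the oviduct averaged 5.99% ± 1.19 (n = 5). Without bone marrow the lymphoid and blood group averaged 5.15% ± 1.34 (n = 4). The low mammary mean rests on mammary replicate 1, at 1.37%, and the other mammary library had 6.26%. In all 18 pairs of neighbours in the order of the 19 groups the ranges of the libraries overlapped. Groups further apart could be separate: heart (23.0% to 25.8%) lay above kidney (14.5% to 15.2%) and skeletal muscle (at most 18.4%). The overlap of mammary with cervix and vagina (at most 3.73%) rests on mammary replicate 1.

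**Figure D1:**
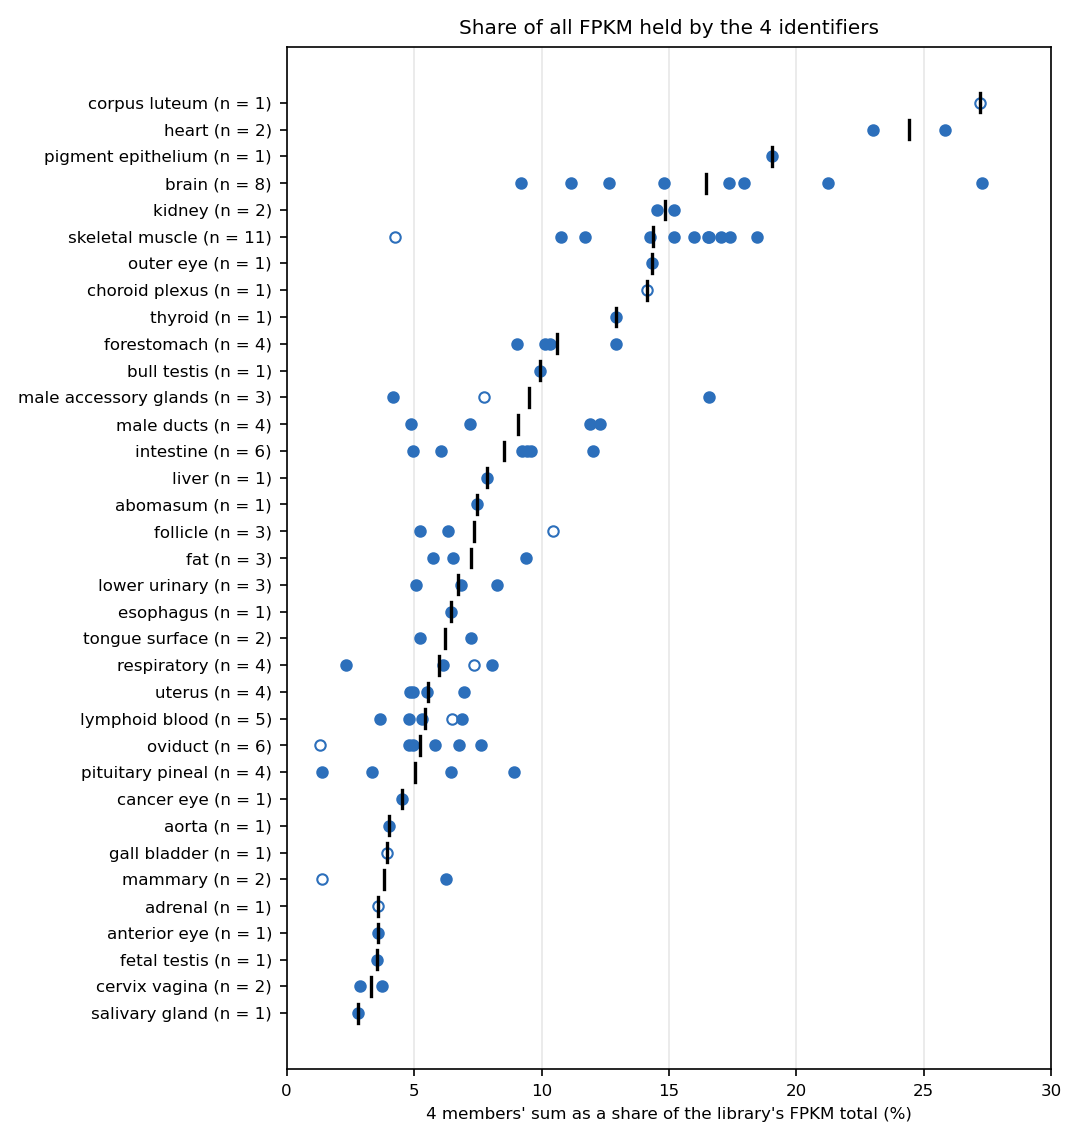
Sum of the 4 identifiers as a share of the library's FPKM total (x axis, %), with 1 row per tissue group in order of the group mean. Points are libraries, open circles the 11 libraries set apart, and vertical bars group means; heart lies at 23.0% and 25.8%, the single corpus luteum library at 27.2%, and the oviduct isthmus on the side of the corpus luteum at 1.31%.

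Heart was at the top for ENSBTAG00000043561, with 75445 FPKM in ventricle and 67278 FPKM in atrium. The library labelled corpus luteum lay between them with 68121 FPKM, and all others were lower than these 3. The 2 heart libraries gave 52185 and 44238 FPKM of ENSBTAG00000043584, 40749 and 33885 FPKM of ENSBTAG00000043564, and 31102 and 29273 FPKM of ENSBTAG00000043560. The order of the 4 was the same in both chambers. It was also the order of kidney cortex and medulla, of all 4 uterus libraries and of 10 of the 11 skeletal muscles, and with 37 libraries the most frequent order in the table.

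Skeletal muscle kept nearly fixed proportions. ENSBTAG00000043561 ranged from 11699 FPKM in diaphragm over a median of 42217 FPKM to 59384 FPKM in internal tongue muscle. ENSBTAG00000043584 ranged from 5898 over 27000 to 38912 FPKM, and ENSBTAG00000043560 from 4426 over 18011 to 24681 FPKM, with the same muscles at both ends. ENSBTAG00000043564 ranged from 5455 FPKM in diaphragm over 24182 FPKM to 29184 FPKM in gluteus medius. Internal tongue muscle is the exception to the proportions: it had the highest level of the other 3 but only 15567 FPKM of ENSBTAG00000043564, and was the only muscle in which that identifier was the lowest of the 4. Its own closest library was the one labelled corpus luteum.

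The 8 brain libraries had no common order of the 4. ENSBTAG00000043561 ranged from 19467 FPKM in diencephalon to 35713 FPKM in temporal cortex, with a median of 26634 FPKM. ENSBTAG00000043560 ranged from 19579 FPKM in diencephalon over 35218 FPKM to 60631 FPKM in temporal cortex. ENSBTAG00000043584 spanned more: 75058 FPKM in temporal cortex, 54055 FPKM in frontal cortex, 40797 FPKM in cerebral cortex and 29578 FPKM in midbrain, against 17909 FPKM in thalamus, 15832 FPKM in diencephalon, 10369 FPKM in hippocampus and 9749 FPKM in pons. In the 4 libraries with the higher values it was the most abundant gene of the whole library. ENSBTAG00000043560 took that place in thalamus, hippocampus and diencephalon, where it had 54834, 27883 and 19579 FPKM.

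In forestomach ENSBTAG00000043561 was high and ENSBTAG00000043584 low. ENSBTAG00000043561 led all genes in its 4 libraries, with 59252 FPKM in rumen papillae, 46991 FPKM in rumen, 44205 FPKM in reticulum and 37862 FPKM in omasum. ENSBTAG00000043584 had 6014, 4752, 4516 and 5516 FPKM in the same libraries and ranks of 13 to 19. Its level there is lower than in any skeletal muscle other than diaphragm, although ENSBTAG00000043561 was within the range of the muscles.

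**Figure D2:**
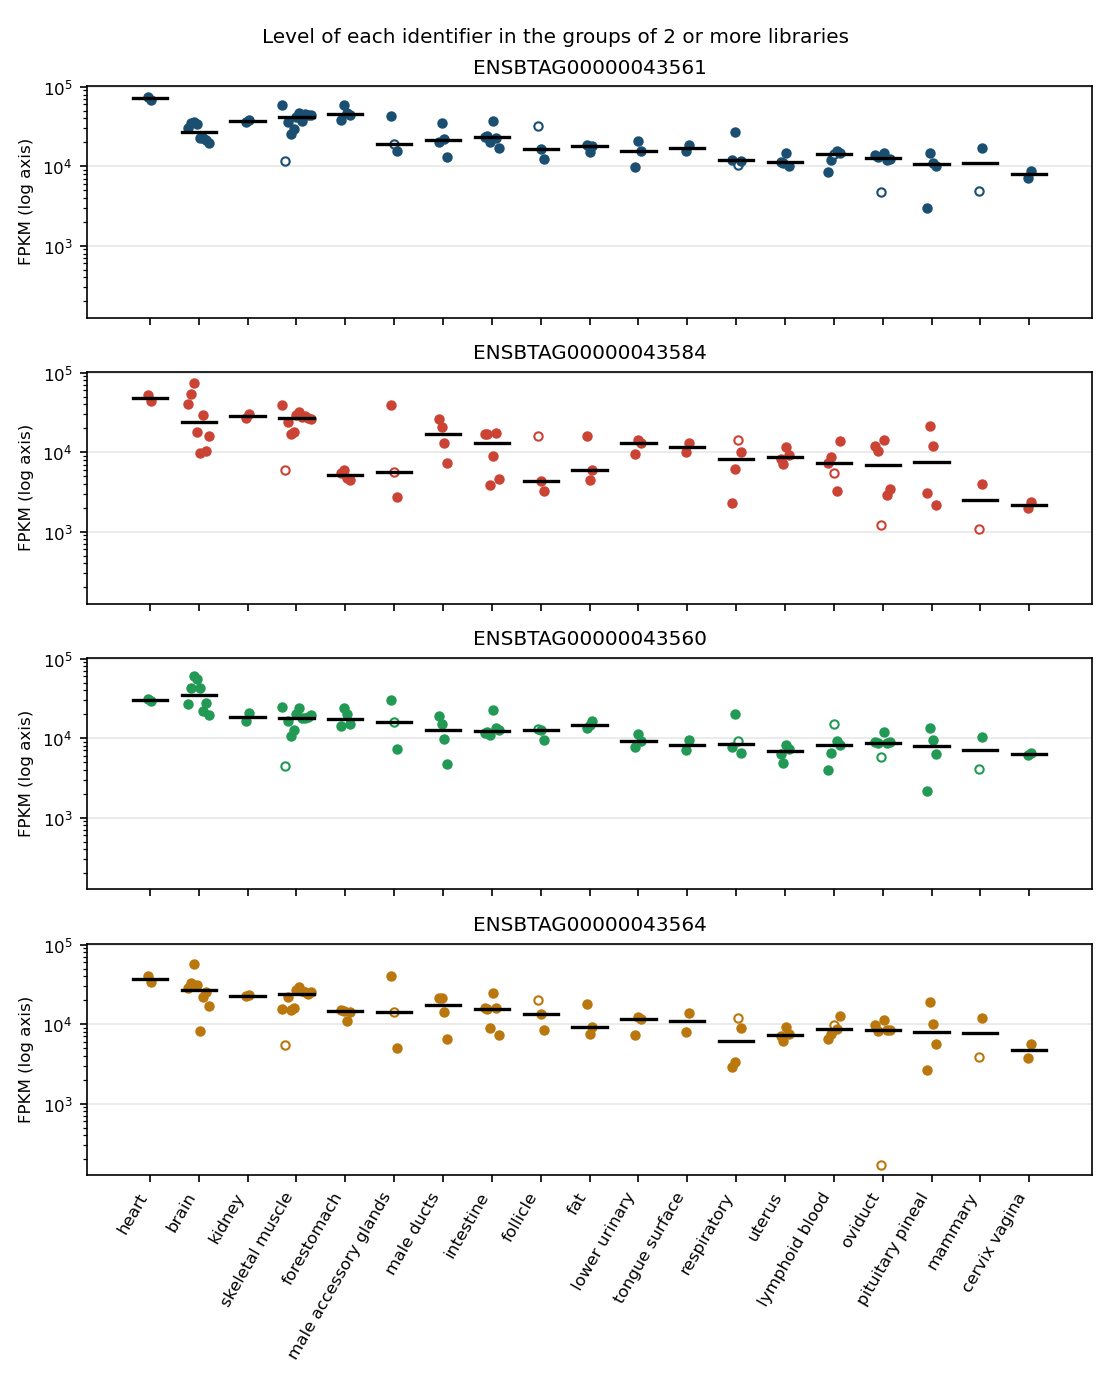
FPKM (y axes, log scale) of each identifier in the 19 groups of 2 or more libraries, in order of the mean share. Points are libraries, open circles those among the 11 libraries set apart, and horizontal bars medians; the 4 forestomach libraries are near the top for ENSBTAG00000043561 and between 4516 and 6014 FPKM for ENSBTAG00000043584, and 1 oviduct library falls to 169 FPKM for ENSBTAG00000043564.

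Ratios between the identifiers within a library do not change with the library's FPKM total. They are not fully independent of the choice of the 4, because an identifier can lead a library only where it exceeds ENSBTAG00000043561. The 3 ratios, of 6, that have ENSBTAG00000043561 as the divisor were tested. They were compared in 6 tissue classes of 4 or more libraries. Each class was set against all other libraries by a two-sided permutation test of the difference of mean log2 ratios with 100000 draws, with Benjamini-Hochberg adjustment over the 18 tests. A difference was called at an adjusted p under 0.05. In brain, ENSBTAG00000043584 led 4 of the 6 libraries it led in all and ENSBTAG00000043560 3 of 4, so their brain ratios draw on the values that chose them and are given as a description, with no p. For the 16 tests left, adjusted p over these alone are given where they change a call. ENSBTAG00000043561 led all 4 forestomach libraries and 10 of the 11 muscles among the 49 it led, so those tests also share levels with the choice. Over all 94 libraries the median ratio to ENSBTAG00000043561 was 0.644 for ENSBTAG00000043584, 0.585 for ENSBTAG00000043560 and 0.633 for ENSBTAG00000043564. The SD of the log2 ratio was 0.95, 0.54 and 0.71, the lowest being that of ENSBTAG00000043560. Over the 88 libraries outside oviduct it was 0.95, 0.55 and 0.59. The gap between ENSBTAG00000043560 and ENSBTAG00000043564 thus rests largely on oviduct.

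In brain, ENSBTAG00000043560 was high relative to ENSBTAG00000043561. The linear ratio was 1.86 in pons, 1.70 in temporal cortex, 1.63 in thalamus, 1.30 in hippocampus, 1.22 in frontal cortex, 1.01 in diencephalon, 0.969 in midbrain and 0.884 in cerebral cortex. All 8 regions lay above the median of the other libraries. The mean log2 ratio was 0.35 ± 0.41 in brain (SD, n = 8) and -0.79 ± 0.44 in the other libraries (n = 86), a difference of 1.14. Without the 11 libraries the difference was 1.16, and leaving out 1 brain region at a time gave 1.06 to 1.21.

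The ratio of ENSBTAG00000043584 to ENSBTAG00000043561 was also higher in brain on average, but the regions did not move together. It was 2.10 in temporal cortex, 1.53 in frontal cortex, 1.34 in cerebral cortex and 1.31 in midbrain, then 0.813 in diencephalon, 0.531 in thalamus, 0.482 in hippocampus and 0.427 in pons. Only 5 of the 8 lay above the median of the other libraries. The mean log2 ratio was -0.12 ± 0.87 in brain (n = 8) and -1.02 ± 0.92 in the others (n = 86), a difference of 0.89, close to the spread within either set. The difference was 0.72 without temporal cortex, the lowest with any one region left out, and with medians in place of means it was 0.70.

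For ENSBTAG00000043564 over ENSBTAG00000043561 the brain difference was 0.65 with an adjusted p of 0.057 by permutation, and was not called. The log2 ratio was -0.14 ± 0.61 in brain (n = 8) and -0.79 ± 0.70 in the others (n = 86), and 7 of 8 regions lay above the median of the others. Pons was the exception, with a linear ratio of 0.355. The difference passed the threshold without pons (0.84, adjusted p 0.028, permutation), without the 11 libraries (0.62, adjusted p 0.021) and with medians (0.57, adjusted p 0.019).

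Forestomach differed most. The ratio of ENSBTAG00000043584 to ENSBTAG00000043561 was 0.101 in rumen, 0.102 in rumen papillae, 0.102 in reticulum and 0.146 in omasum, and rumen had the lowest of all 94 libraries. The mean log2 ratio was -3.17 ± 0.26 in forestomach (n = 4) and -0.84 ± 0.84 in the others (n = 90), a difference of -2.33 with a permutation p of 1e-05, the smallest that 100000 draws can give, and an adjusted p of 9e-05. It remained called without each of the 4 libraries in turn, with differences between -2.46 and -2.28, and was -2.35 (adjusted p 9e-05, permutation) without the 11 libraries. All 4 lay in the low range of ENSBTAG00000043584 over ENSBTAG00000043560 described below, while 61 of the 90 others lay outside it. The difference therefore also carries that split, and no test was made within the low range. ENSBTAG00000043561 led all 4 forestomach libraries, so these p-values also draw on levels that chose it and are no independent support. The lowest ratio outside forestomach was 0.172, in bulbourethral gland, which also lay in the low range.

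Both other ratios were low in forestomach as well, with less certainty. The ratio of ENSBTAG00000043560 to ENSBTAG00000043561 was 0.427 in rumen, 0.400 in rumen papillae, 0.378 in omasum and 0.345 in reticulum. Its mean log2 ratio was -1.37 ± 0.13 in forestomach (n = 4) and -0.66 ± 0.53 in the others (n = 90), a difference of -0.71 with an adjusted p of 0.034 by permutation. The ratio of ENSBTAG00000043564 was 0.397 in omasum, 0.323 in reticulum, 0.247 in rumen papillae and 0.234 in rumen. Its mean log2 ratio was -1.77 ± 0.35 in forestomach (n = 4) and -0.69 ± 0.69 in the others (n = 90), a difference of -1.08 with an adjusted p of 0.049 by permutation. Adjusted over the 16 tests this call was lost (0.066, permutation), while that of ENSBTAG00000043560 was kept (0.048). All 4 libraries lay below the median of the others for both ratios. Leaving out any one of omasum, rumen papillae, rumen and reticulum took either call past the threshold, with adjusted p from 0.056 to 0.082 for ENSBTAG00000043560 (differences -0.76 to -0.66) and from 0.064 to 0.096 for ENSBTAG00000043564 (differences -1.23 to -0.97). With medians the ENSBTAG00000043560 difference was -0.61 (adjusted p 0.14, permutation) and that of ENSBTAG00000043564 -1.18 (adjusted p 0.015). Without the 11 libraries they were -0.71 (adjusted p 0.03, permutation) and -1.12 (adjusted p 0.005). These p-values, too, draw on levels that chose ENSBTAG00000043561.

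Skeletal muscle had little ENSBTAG00000043560 for its ENSBTAG00000043561, though it was not alone in this. On the log2 scale the ratio ranged from -1.40 in diaphragm over a median of -1.21 to -0.996 in gluteus medius, and all 11 muscles lay below the median of the others. Heart lay within the range of the muscles, with -1.28 in ventricle and -1.20 in atrium. Abomasum had the lowest value of all libraries, -1.66. The mean was -1.20 ± 0.13 in muscle (n = 11) and -0.62 ± 0.54 in the others (n = 83), a difference of -0.57 with an adjusted p of 0.0043 by permutation, and -0.55 (adjusted p 0.011) without the 11 libraries. With medians it was -0.50 (adjusted p 0.069, permutation). ENSBTAG00000043561 led 10 of the 11 muscles, so these p-values also draw on levels that chose it. The other ratios were not called in muscle: the difference was 0.33 (adjusted p 0.51) for ENSBTAG00000043584 and -0.18 (adjusted p 0.63) for ENSBTAG00000043564. For ENSBTAG00000043584 the 11 muscles spread little around their mean, at -0.65 ± 0.14, while the other 83 libraries had -0.98 ± 1.002.

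None of the 9 tests in intestine, oviduct and the lymphoid and blood class was called, with adjusted p from 0.16 to 0.95 by permutation and a smallest unadjusted p of 0.072. These classes are not uniform. The log2 ratio of ENSBTAG00000043584 to ENSBTAG00000043561 had an SD of 0.92 in intestine (n = 6), 0.98 in oviduct (n = 6) and 0.91 in the lymphoid and blood class (n = 5), about that of all libraries together. The 6 oviduct libraries all lay above the median of the others for ENSBTAG00000043560 over ENSBTAG00000043561, with -0.36 ± 0.33 in oviduct and -0.71 ± 0.55 in the other 88 libraries. That difference of 0.35 had an adjusted p of 0.25 by permutation and was not called.

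**Figure D3:**
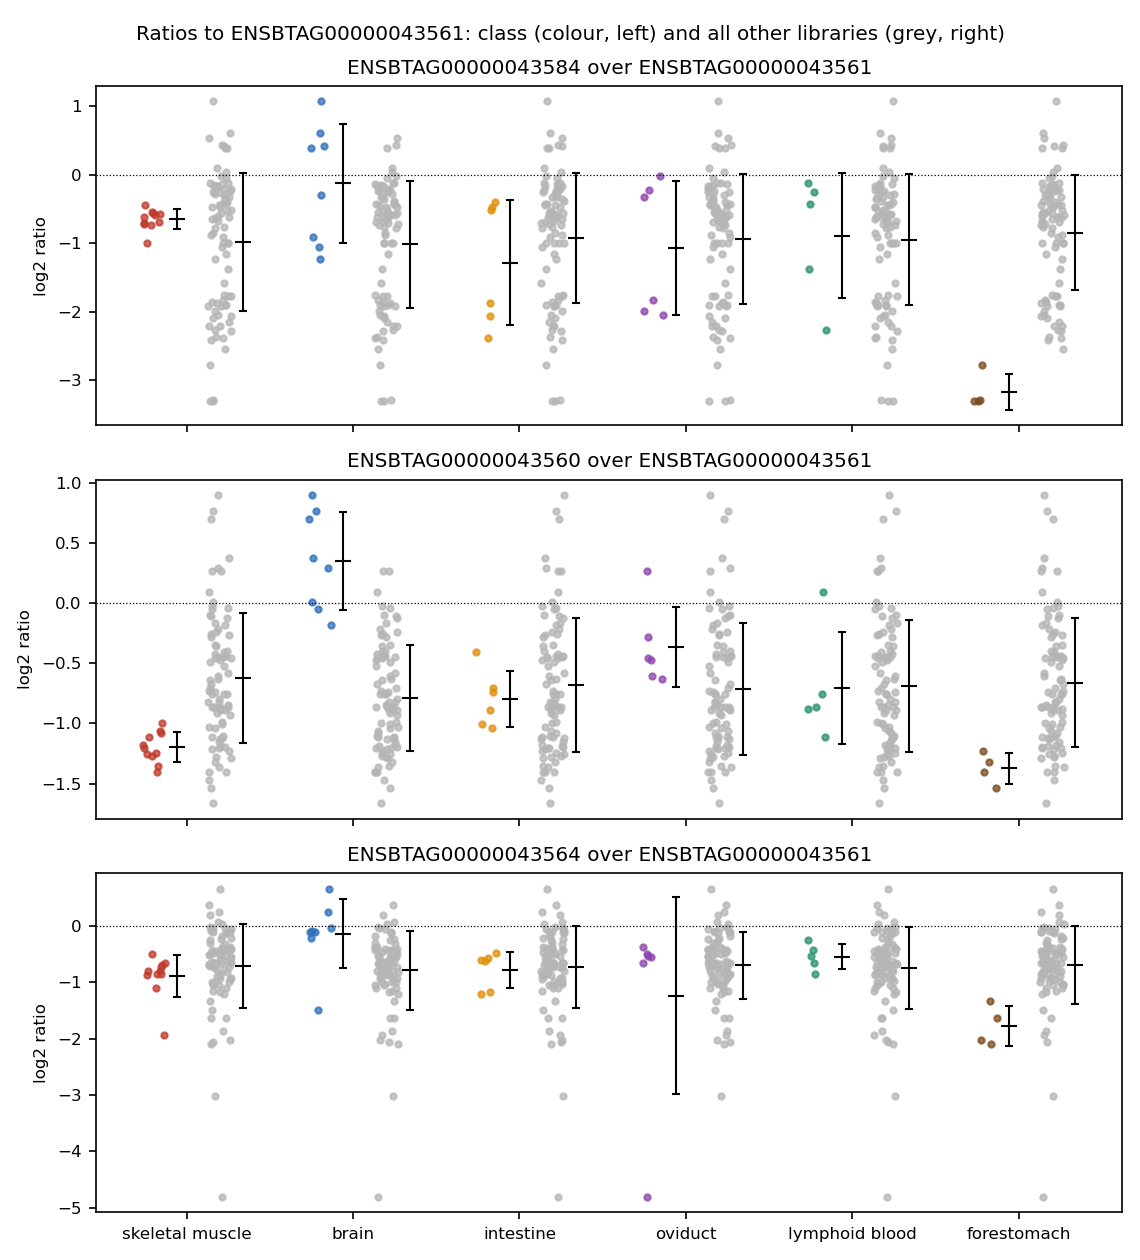
The 3 tested log2 ratios to ENSBTAG00000043561 (y axes) in 6 tissue classes (colour, left of each pair) and in all other libraries (grey, right). Points are libraries and bars the mean ± SD; brain lies high for ENSBTAG00000043560 (0.35 ± 0.41), forestomach low for ENSBTAG00000043584 (-3.17 ± 0.26), and intestine, oviduct and the lymphoid and blood class fall into separate clumps for ENSBTAG00000043584.

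The clumps follow the ratio of ENSBTAG00000043584 to ENSBTAG00000043560, which took values in 2 separate ranges. In 33 libraries it lay between 0.209 (isthmus on the side of the corpus luteum) and 0.392 (duodenum). In 60 libraries it lay between 1.18 (mammary gland fat) and 1.82 (lymph nodes). Diencephalon alone stood between, at 0.809. The widest empty stretch covered 1.04 on the log2 scale and the next 0.54, on the other side of diencephalon. Among the other 5 ratios the widest empty stretch with at least 10 libraries on either side was 0.34, for ENSBTAG00000043584 over ENSBTAG00000043564.

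**Figure D4:**
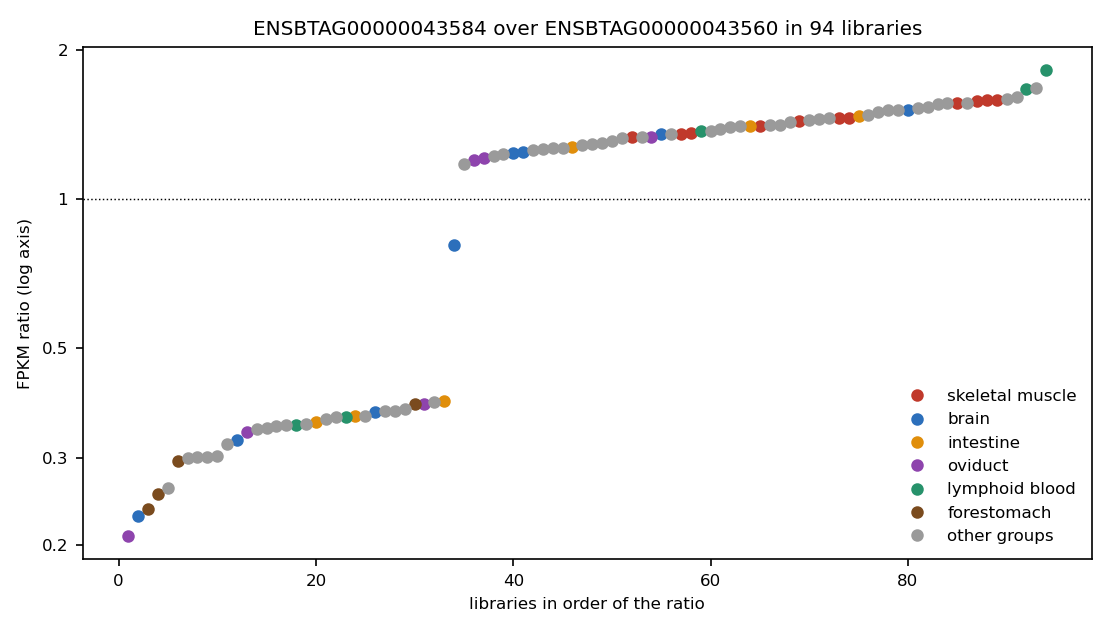
Ratio of ENSBTAG00000043584 to ENSBTAG00000043560 (y axis, log scale) in the 94 libraries in order of that ratio (x axis). Each point is a library, coloured for 6 tissue classes; 33 libraries lie at 0.392 or below, diencephalon at 0.809, and 60 at 1.18 or above, and brain, intestine, oviduct and lymphoid libraries occur in both ranges.

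Some tissue groups lay wholly in the low or the high range and others in both, but no test against tissue was made. Over all expressed genes without the 4 identifiers, 74 of the 94 libraries lay in the same range as their closest library and 20 did not. Diencephalon was counted as high. The closest library is often of another tissue, as for 26 of the 78 libraries in groups of 2 or more. The 74 were also not compared with the number that the sizes of the ranges alone would give. This count therefore does not show whether the ranges follow tissue. Of the 19 groups of 2 or more libraries, 3 lay wholly in the low range: forestomach, mammary, and cervix and vagina. Another 7 lay wholly in the high range: the 11 skeletal muscles, heart, kidney, lower urinary tract, male ducts, tongue surface and uterus. The other 9 had libraries in both. Of the 16 groups of a single library, 5 were low (anterior eye, aorta, bull testis, cancer eye and fetal testis) and 11 high.

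Neighbouring organs could differ. In intestine the ratio was 0.392 in duodenum, 0.364 in jejunum and 0.355 in caecum, but 1.28 in ileum, 1.47 in ascending colon and 1.41 in descending colon. The low values there came with less ENSBTAG00000043584 (8935, 4622 and 3914 FPKM) than the high ones (17215, 16947 and 16922 FPKM), while ENSBTAG00000043560 was 22780, 12691 and 11020 FPKM in the low libraries and 13503, 11510 and 12011 FPKM in the high ones. In oviduct, both infundibulum libraries were low, at 0.339 on the side of the corpus luteum and 0.387 on the other side, and both ampulla libraries high, at 1.33 and 1.21. The 2 isthmus libraries were split, with 0.209 on the side of the corpus luteum and 1.20 on the other.

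In brain the low values were 0.229 in pons, 0.327 in thalamus and 0.372 in hippocampus, and the high ones 1.52 in cerebral cortex, 1.35 in midbrain, 1.25 in frontal cortex and 1.24 in temporal cortex. White blood cells (0.350) and bone marrow (0.363) were low and spleen (1.37), mesenteric lymph node (1.67) and lymph nodes (1.82) high. Follicle 1, one of the 11 libraries set apart, had 1.22, and follicles 2 and 3 had 0.349 and 0.343. Cancer eye had 0.352, against 1.50 in the normal outer eye layer taken 1 cm from it. Without the libraries set apart among these, bone marrow and follicle 1, the follicles are all low and the lymphoid and blood class is still in both ranges.

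No label names a batch. The library titles hold running numbers of unstated meaning, and the split was not tested against them. Low libraries were frequent among the highest numbers, from caecum to follicle 3, which include all forestomach libraries. Spleen, ileum, lower tongue, mesenteric lymph node and tail epididymis were high there. In the stretch before, from ureter to descending colon, mammary gland alone was low, and most muscles lie there. The libraries from choroid plexus to caput epididymis were all high. They include follicle 1, mammary gland fat and the library labelled prostrate, whose groups hold low libraries at higher numbers. For forestomach and most muscles number and tissue cannot be told apart here. FPKM totals ran from 625802 to 1062591 in the low libraries and from 585122 to 925116 in the high ones with diencephalon, and genes at 1 FPKM or more from 10014 to 14198 and from 7353 to 14081, so both overlapped. Of the 11 libraries set apart, 4 were low and 7 high. The part of RNA quality or library preparation in the split was not tested, since no measure of either is given.

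**Figure D5:**
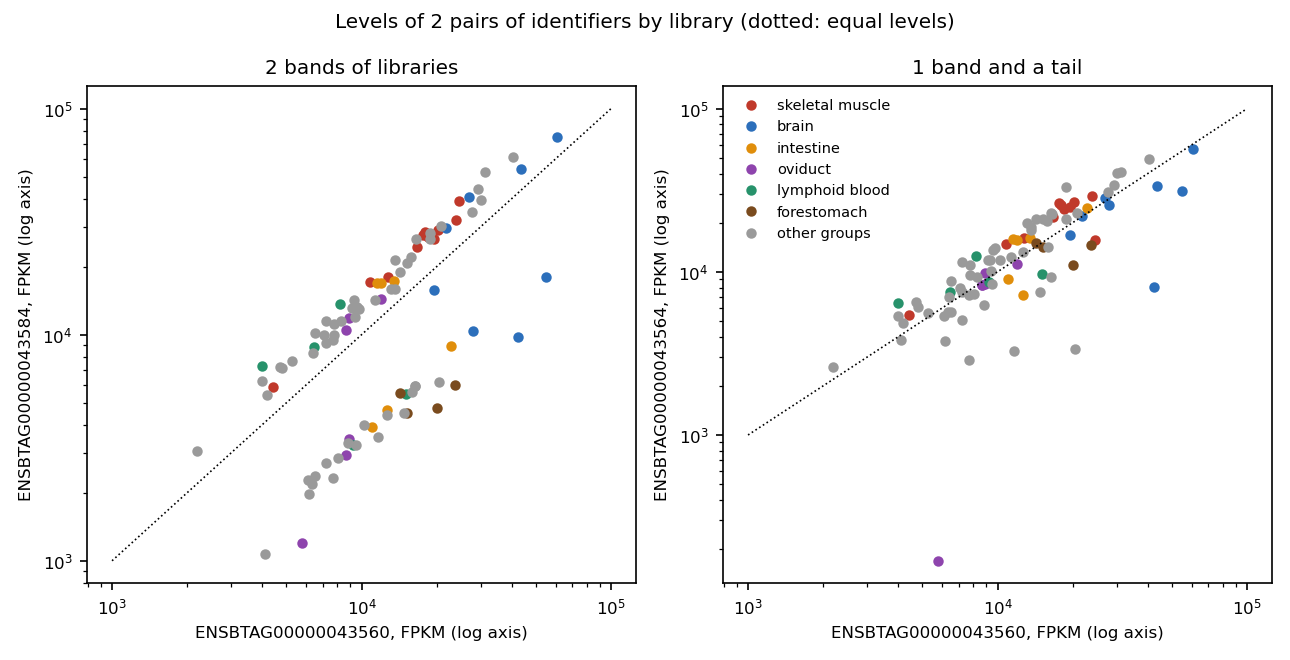
FPKM of ENSBTAG00000043584 (left) and of ENSBTAG00000043564 (right) against FPKM of ENSBTAG00000043560 in the 94 libraries, all axes log scale, with a dotted line at equal levels. The left panel has 2 bands of libraries with diencephalon between; the right panel has 1 band with a tail below it that ends at the oviduct isthmus on the side of the corpus luteum, at 169 FPKM of ENSBTAG00000043564.

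ENSBTAG00000043564 had its own outlying libraries. Its ratio to ENSBTAG00000043560 had a median of 1.10 and fell to 0.0295 in the isthmus on the side of the corpus luteum, where ENSBTAG00000043564 stood at rank 642. In that library ENSBTAG00000043561 was 4778 FPKM, ENSBTAG00000043560 5750 FPKM and ENSBTAG00000043584 1202 FPKM. All 4 were lower than in the isthmus of the other side, which had 14498, 11949 and 14358 FPKM of these and 11180 FPKM of ENSBTAG00000043564. The next lowest ratios to ENSBTAG00000043560 were 0.166 in larynx cartilage and 0.191 in pons. Larynx cartilage had 3385 FPKM of ENSBTAG00000043564 and pons 8122 FPKM.

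The levels of the 4 rose and fell together over the libraries to different degrees. As a description over 94 libraries, which share the scaling of each library, Spearman's rho of log2(FPKM + 1) was 0.85 between ENSBTAG00000043560 and ENSBTAG00000043561, 0.83 between ENSBTAG00000043564 and ENSBTAG00000043561, 0.84 between ENSBTAG00000043584 and ENSBTAG00000043564, 0.83 between ENSBTAG00000043564 and ENSBTAG00000043560, and 0.68 between ENSBTAG00000043584 and ENSBTAG00000043561, the weakest of the 5. For ENSBTAG00000043584 with ENSBTAG00000043560 rho was 0.66, the lowest of all 6 pairs. It is a poor summary of that pair, since the libraries fall into 2 bands. The summed share had a rho of -0.29 with the number of genes at 1 FPKM or more.

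Other abundant genes followed each identifier, here the 2 genes with the highest Spearman's rho among the other genes at 1 FPKM or more in at least 3 libraries, over the same 94 libraries. For ENSBTAG00000043561 these were ENSBTAG00000043556 (rho 0.93, median 9729 FPKM) and ENSBTAG00000043550 (0.90, median 6390 FPKM). For ENSBTAG00000043560 they were ENSBTAG00000043550 (0.95) and ENSBTAG00000043577 (0.95, median 3845 FPKM). For ENSBTAG00000043564 they were ENSBTAG00000043559 (0.95, median 1361 FPKM) and ENSBTAG00000043558 (0.89, median 5524 FPKM). ENSBTAG00000043584 had the same 2 companions, ENSBTAG00000043559 and ENSBTAG00000043558, but at a rho of 0.77 for each, the weakest likeness of the 4. The third gene in each list reached 0.85 for ENSBTAG00000043561, 0.93 for ENSBTAG00000043560, 0.88 for ENSBTAG00000043564 and 0.75 for ENSBTAG00000043584.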

How the data were processed

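One table of FPKM values for 24616 Ensembl gene identifiers and 94 libraries was used as the authors deposited it. HISAT2, StringTie and the genome build UMD3.1 are named per the submitters' processing notes. The sources used here name no version, annotation release, library preparation or strand, and depth is unknown. Shares are percent of the library's FPKM total over all genes. Ratios were tested as differences of log2(FPKM + 1), so low values are understated, though no identifier was under 10 FPKM. The named genes are the 4 identifiers and, for each, the 2 genes most like it. The 4, the lists, the classes, the set of 11 libraries and the tests were chosen with earlier results of these data known. The test was tried on simulated normal values with the same spread in class and others. Several of the real ratios have unequal spreads, so that trial does not show how the test behaves on them. Alternatives changed the pseudocount, scaling, statistic, the libraries used and the total behind the share. Lists of mitochondrial, respiratory chain and cell type genes were not run, as no identifier matched a symbol. Python 3.11.15, numpy 2.4.6, scipy 1.17.1 and pandas 2.3.3 were used.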

Additional observations from a re-analysis of the deposited data

Results flagged for a closer look

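In all, 9 values stood apart from the rest of their group, among 72 combinations of 9 groups of 4 to 10 libraries with 8 values each; chance alone sets apart about 1 in 20. In each, the gap to the nearest library of the group was large for the range of the group. The oviduct isthmus on the side of the corpus luteum gave 3 of them: 4778 FPKM of ENSBTAG00000043561, against 12066 to 14498 FPKM in the other 5 libraries, 169 FPKM of ENSBTAG00000043564, against 8255 to 11180 FPKM, and a log2 ratio of the second to the first of -4.81, against -0.67 to -0.37. Duodenum stood above the rest of intestine with 37176 FPKM of ENSBTAG00000043561, against 16852 to 24100 FPKM, and 22780 FPKM of ENSBTAG00000043560, against 11020 to 13503 FPKM. Larynx cartilage had 27346 FPKM of ENSBTAG00000043561, against 10457 to 11991 FPKM in the other respiratory libraries. Pons had a log2 ratio of ENSBTAG00000043564 to ENSBTAG00000043561 of -1.49, against -0.21 to 0.66 in the other brain regions. For ENSBTAG00000043584 over ENSBTAG00000043561, vas deferens had 0.39, against -0.85 to -0.76 in the other male ducts, and omasum -2.78, against -3.31 to -3.29 in the other forestomach libraries.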

How the results depend on the processing

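Below, differences are class minus other libraries in the log2 ratio to ENSBTAG00000043561. With medians in place of means, ENSBTAG00000043560 in skeletal muscle (-0.50) and in forestomach (-0.61) no longer passed the threshold, and ENSBTAG00000043564 in brain (0.57) did. ENSBTAG00000043564 changed sign with medians in intestine (0.049) and oviduct (0.12). The median difference of ENSBTAG00000043584 in brain, given as a description only, was 0.70. Without the 11 libraries ENSBTAG00000043564 in brain passed (0.62), and the oviduct differences changed sign for ENSBTAG00000043584 (0.053) and ENSBTAG00000043564 (0.19). Adjusted over the 16 tests, an alternative chosen after seeing the data, ENSBTAG00000043564 in forestomach (-1.08) was no longer called. Against the mean of the other groups' means, ENSBTAG00000043560 in the lymphoid and blood class changed sign (0.042). Leaving out 1 library of the class at a time gave, for ENSBTAG00000043584, 0.72 to 1.05 in brain, -0.35 to 0.058 in oviduct and -0.13 to 0.40 in the lymphoid and blood class. For ENSBTAG00000043560 it gave -0.76 to -0.66 in forestomach and -0.21 to 0.088 in the lymphoid and blood class. For ENSBTAG00000043564 it gave 0.54 to 0.84 in brain, -1.23 to -0.97 in forestomach, -0.11 to 0.040 in intestine and -0.71 to 0.18 in oviduct. The cause was not tested. Every sign change is of a difference that was not called. A pseudocount of 0.1, rescaled totals and a floor of 10 FPKM changed no call. The median share was 7.54% to 9.10% with other totals and 7.86% without the 11 libraries. By Pearson's r in place of rho, ENSBTAG00000043559 moved to place 3 for ENSBTAG00000043584 and ENSBTAG00000043558 to place 4 for ENSBTAG00000043564, and rescaling kept every pair of genes. No paired analysis was possible because no label ties libraries of different groups to 1 animal. Unknown depth limits what can be said of the precision of single values.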

Other observations

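In 20 of the 94 libraries the ratio of ENSBTAG00000043584 to ENSBTAG00000043560 lay in another of its 2 ranges than in the closest library, and in 74 in the same. Of the 20, 3 are given as examples, chosen after their values were seen. The closest library was found over all expressed genes without the 4 identifiers. Trachea, one of the 11 libraries set apart, had a ratio of 1.53 and aorta, its closest library at a Spearman's rho of 0.976, had 0.374. Anterior pituitary had 1.40 and pineal gland, its closest at 0.964, had 0.345. Urethra had 1.43 and KPH fat, its closest at 0.969, had 0.363.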
